A study of Mus musculus with 10 samples.

Results

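The promoters of long non-coding RNA (lncRNA) genes were examined in chromatin accessibility data from neural stem cell cultures of the adult mouse subependymal zone (SEZ). A lncRNA promoter region was a stretch of open chromatin on an autosome whose summit lay within 1 kb of the start of a lincRNA or antisense gene and more than 3 kb from the start of every protein-coding transcript. There were 1326 such regions among 96188 autosomal regions and 99231 regions in all, each with a peak in at least 2 of 10 libraries. They lay nearest to 1261 lncRNA genes, and 990 belonged to lincRNAs (transcribed between protein-coding genes) and 336 to antisense genes (transcribed across a coding gene from the opposite strand). For 36 regions a further lncRNA gene also started within 1 kb.

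The assay was ATAC-seq, which relies on a transposase to cut open DNA and insert sequencing adapters. Cultures came from wild-type (WT) mice and from mice without Cdkn1b, the gene of the cyclin-dependent kinase inhibitor p27 (p27KO), all 10 weeks old, and each library was made from 50000 cells. Proliferating cultures (PRO) were neurospheres in medium with EGF at 20 ng/ml and FGF at 10 ng/ml, 3 days in vitro by the labels, although the study also names a longer time. Differentiating cultures (DIFF) had been plated on Matrigel for 2 days with FGF and were then held for 24 h without mitogens in 2% fetal bovine serum, so DIFF and PRO differed in substrate, serum and growth factors at once, whose parts cannot be told apart. WT had 3 libraries per condition and p27KO 2, called biological replicates, and whether their numbers stand for separate mice is not given in the sources used here.

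The lists held 57534 to 91801 peaks, and the number of reads behind each library is not given in the sources used here, which state only an average over samples. A region without a peak is therefore one in which none was called, and a longer list can come from more reads alone. Cdkn1b was checked first: the region over its start site had a peak in 6 of 6 WT and in 0 of 4 p27KO libraries, as the titles and genotypes say, whereas the free-text descriptions of the p27KO libraries name WT cells. On chromosome Y, 16 of 72 regions had a peak in all 6 WT and in 0 of 4 p27KO libraries, so that genotype and the sex of the mice cannot be told apart. All 7 promoters of neural stem and progenitor genes that were examined had a peak in all 10 libraries. Promoters of other cell types were mixed: Dcx, Mog, Aif1, Csf1r, Cx3cr1, Cldn5 and Cdh5 had a peak in 0 libraries, Tubb3, Dlx2, Mbp, P2ry12 and Foxj1 in all 10, and the endothelial Pecam1 in all 5 PRO and 0 DIFF libraries. In such bulk cultures, fewer cells of a type and less open chromatin per cell cannot be told apart.

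lncRNAs are transcripts without a long open reading frame. Some silence or activate neighbouring genes, some host microRNAs or small nucleolar RNAs, and many are made at low level from start sites that act more like enhancers than like the promoters of coding genes. Promoters of coding genes are often rich in CpG dinucleotides and open in most cells, whereas enhancers are CpG-poor and bound by factors that differ between cell states. AP-1, a dimer of Fos and Jun proteins, is activated by growth factors and binds such enhancers, and nuclear factor I (NFI) proteins act in glial differentiation.

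The sequences of the 6 lncRNA promoter regions that fell most and of the 6 that rose most from PRO to DIFF in WT are shown first, because their letters recur below. Each has 161 bases of GRCm38 centred on the summit, 5′ to 3′ in the direction of the lncRNA. Capitals mark AP-1 letters (TGACTCA or TGAGTCA), E-box letters, which basic helix-loop-helix proteins bind (CAGCTG or CATCTG), and NFI letters (TTGGCA), on either strand. AP-1 or NFI letters can share end bases with E-box letters.
Gm37986 (chr1:183414213-183414373, + strand): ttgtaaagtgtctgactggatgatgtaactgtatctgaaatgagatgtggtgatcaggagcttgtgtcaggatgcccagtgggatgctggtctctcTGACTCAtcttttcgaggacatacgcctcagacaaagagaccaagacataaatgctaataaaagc
Gm49470 (chr15:87138955-87139115, + strand): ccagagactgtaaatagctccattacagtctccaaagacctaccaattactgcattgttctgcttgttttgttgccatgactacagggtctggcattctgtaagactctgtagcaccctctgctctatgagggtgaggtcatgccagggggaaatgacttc
1700025O08Rik (chr4:22938400-22938560, - strand): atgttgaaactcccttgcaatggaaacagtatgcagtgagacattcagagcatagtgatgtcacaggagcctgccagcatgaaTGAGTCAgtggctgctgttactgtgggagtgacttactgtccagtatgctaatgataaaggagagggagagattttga
Gm11682 (chr11:110544661-110544821, + strand): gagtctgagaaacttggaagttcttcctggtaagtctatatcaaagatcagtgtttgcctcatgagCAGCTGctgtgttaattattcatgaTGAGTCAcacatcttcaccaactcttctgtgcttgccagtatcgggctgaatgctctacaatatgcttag
Gm48703 (chr13:35395747-35395907, + strand): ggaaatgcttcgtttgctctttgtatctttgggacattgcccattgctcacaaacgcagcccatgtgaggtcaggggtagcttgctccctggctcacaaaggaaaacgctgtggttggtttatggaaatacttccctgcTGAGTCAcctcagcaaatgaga
A930003A15Rik (chr16:19884246-19884406, - strand): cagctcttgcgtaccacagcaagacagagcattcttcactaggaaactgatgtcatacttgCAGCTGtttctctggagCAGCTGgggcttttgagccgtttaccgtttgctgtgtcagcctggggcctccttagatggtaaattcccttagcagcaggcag
Gm38398 (chr9:83097911-83098071, + strand): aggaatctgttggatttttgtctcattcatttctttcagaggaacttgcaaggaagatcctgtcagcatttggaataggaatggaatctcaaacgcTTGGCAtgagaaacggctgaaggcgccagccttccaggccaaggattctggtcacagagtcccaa
Platr26 (chr2:71719729-71719889, + strand): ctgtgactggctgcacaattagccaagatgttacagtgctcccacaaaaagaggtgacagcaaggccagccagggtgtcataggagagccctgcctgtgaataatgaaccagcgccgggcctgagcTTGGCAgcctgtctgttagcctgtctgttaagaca
Gm35850 (chr8:90741487-90741647, - strand): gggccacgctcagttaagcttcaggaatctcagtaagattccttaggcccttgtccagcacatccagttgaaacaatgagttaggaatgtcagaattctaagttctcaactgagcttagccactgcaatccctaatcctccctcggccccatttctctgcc
2900052N01Rik (chr9:46913312-46913472, + strand): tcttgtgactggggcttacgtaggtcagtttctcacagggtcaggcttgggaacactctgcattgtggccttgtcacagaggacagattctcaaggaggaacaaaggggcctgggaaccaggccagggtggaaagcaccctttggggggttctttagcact
AC141882.2 (chr17:27247779-27247939, - strand): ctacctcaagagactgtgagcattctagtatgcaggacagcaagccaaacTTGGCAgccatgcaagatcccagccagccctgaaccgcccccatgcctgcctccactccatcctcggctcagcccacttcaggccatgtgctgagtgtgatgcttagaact
Gm13479 (chr2:45356877-45357037, + strand): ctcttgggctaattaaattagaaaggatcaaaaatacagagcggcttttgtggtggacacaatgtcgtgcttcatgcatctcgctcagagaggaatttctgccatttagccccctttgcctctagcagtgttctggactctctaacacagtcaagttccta

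The first 6 windows fell at DIFF and the last 6 rose. AP-1 letters stand in 4 of the 6 that fell and in 0 of the 6 that rose, and NFI letters in 0 of the 6 that fell and in 3 of the 6 that rose. In the wider window of 300 bases used for the shares below, Gm37986 and A930003A15Rik, which fell, and Gm13479, which rose, hold NFI letters too. A match of letters is a description of the window and not a bound site.

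lncRNA promoter regions stood between the promoters of coding genes and distal regions in how steadily they were found. A peak was present in all 10 libraries at 588 of 1326 regions (44.3%, 95% exact binomial interval 41.6% to 47.1%, counting error only), against 75.2% of 17077 regions within 1 kb of a coding start and 29.8% of 71401 distal regions, over 1 kb from lncRNA and over 3 kb from coding starts. At 158 regions only 2 libraries had a peak. The median width was 553 bp, against 984 bp at coding promoters and 431 bp in distal regions. These shares were described without a test, since regions are not replicates.

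In each of the 10 libraries the share of lncRNA promoter regions with a peak lay between the shares of the other classes. It was 79.2%, 78.1% and 75% in WT PRO, 61.5%, 57.4% and 80.8% in WT DIFF, 83.6% and 77.8% in p27KO PRO, and 64.3% and 71% in p27KO DIFF libraries. In WT the mean number with a peak was 1027 ± 29 at PRO and 883 ± 166 at DIFF (SD, n = 3 each). In p27KO these means were 1070 ± 54 at PRO and 896 ± 63 at DIFF (SD, n = 2 each). WT DIFF replicate 3 stood apart from its group, with 88738 peaks and 1072 lncRNA promoter regions against 816 and 761 in the other WT DIFF libraries, and through it the WT PRO and WT DIFF counts overlapped. The p27KO counts did not overlap. Over all autosomal regions the share with a peak moved the same way. In p27KO it was 80.1% and 75.1% at PRO and 61.7% and 68% at DIFF. In WT it was 73.9%, 73.5% and 70.5% at PRO and 57.6%, 53.9% and 78.5% at DIFF. The p27KO PRO lists were also longer, at 83854 and 91801 peaks against 67589 and 73220 at DIFF.

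**Figure D1:**
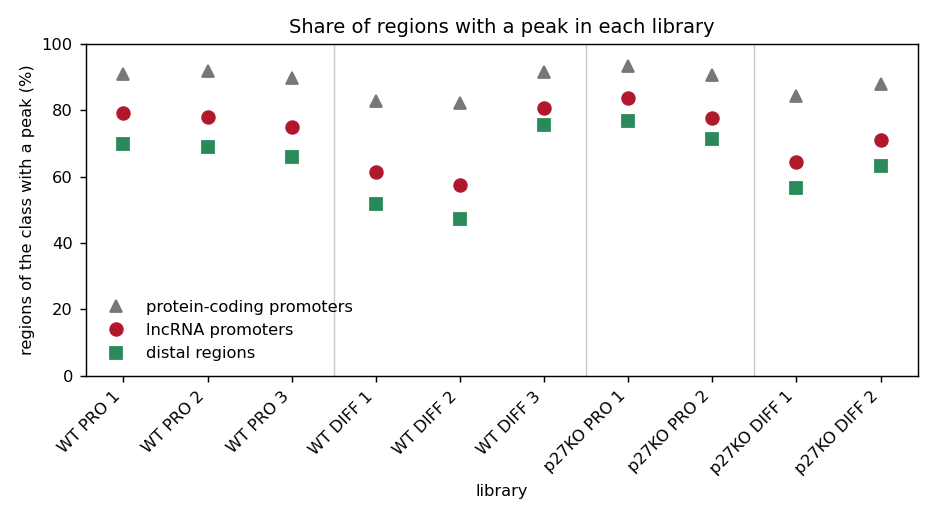
Share of regions with a peak (%) in each of the 10 libraries, for coding promoters, lncRNA promoter regions and distal regions, with 1 point per class and library and grey lines between groups. The lncRNA points lie between the other classes in every library, from 57.4% to 83.6%, and WT DIFF 3 sits at the height of the PRO libraries.

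Strength followed the same order. Fold enrichment, the ratio of the pileup at a peak's summit to the local background of its library, was ranked within each list and given as a percentile among the regions with a peak there. The median percentile of lncRNA promoter regions was 52.8 to 56.7 over the 10 libraries, against 75.0 to 79.3 at coding promoters and 41.0 to 44.3 in distal regions. Regions whose summit lay within 100 bp of the lncRNA start had a peak in all 10 libraries in 51.8% of 396 cases, those at over 100 and up to 500 bp in 45.1% of 546 and those farther away, up to 1 kb, in 35.7% of 384.

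CpG-rich regions had a peak in all libraries more often than CpG-poor ones. Of the 1326 regions, 180 were CpG-rich (an observed over expected CpG ratio of at least 0.6 and a GC content of at least 50% in 300 bases around the summit), which is 13.6%, against 63.1% of coding promoters and 2.74% of distal regions. A peak was present in all 10 libraries at 72.2% of CpG-rich and at 40% of 1146 CpG-poor lncRNA promoter regions. CpG-rich lncRNA promoter regions were called less steadily than CpG-rich coding promoters (90.1%), and CpG-poor ones lay between CpG-poor coding promoters (49.9%) and CpG-poor distal regions (29.3%).

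**Figure D2:**
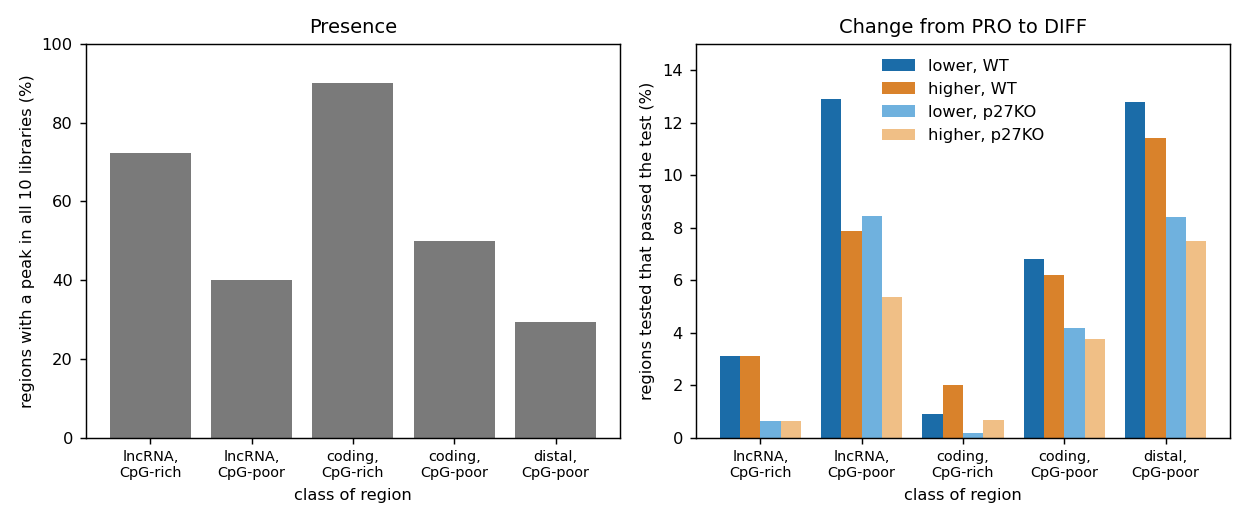
Left, regions with a peak in all 10 libraries (% of the class), and right, regions that passed the rank test for DIFF minus PRO (% of those tested), by direction and genotype, for CpG-rich and CpG-poor classes. Bars are shares of regions with no error. CpG-poor lncRNA promoter regions passed in 20.7% of tests in WT and CpG-rich ones in 6.21%.

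The 5 regions with the highest mean percentile were those of Gm5165, Gm35552, Gm5444, Gm6712 and Gm42196, lincRNA genes without a named function. Their fold enrichment was 18.4 to 22.4 at Gm5165 (chr17:17234369-17235557), 17.5 to 24.98 at Gm35552 (chr10:47102498-47103084), 17.5 to 21.5 at Gm5444 (chr13:4771156-4771959), 17.7 to 23.1 at Gm6712 (chr17:17293835-17294842) and 15.8 to 20.3 at Gm42196 (chr3:28176065-28177032). Every one of these values was at or above the 98.7th percentile of its library. All 5 summits lay 3 to 127 bp upstream of the lincRNA start, outside coding genes, and all 5 regions were CpG-poor. The windows of Gm5165 and Gm6712 are shown because they are near copies, identical at 155 of 161 bases (96.3%), so that reads from either could have been placed at the other.
Gm5165 (chr17:17234672-17234832, + strand): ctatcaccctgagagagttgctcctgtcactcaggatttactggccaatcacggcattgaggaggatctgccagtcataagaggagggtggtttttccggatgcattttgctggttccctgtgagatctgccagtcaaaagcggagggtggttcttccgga
Gm6712 (chr17:17294236-17294396, + strand): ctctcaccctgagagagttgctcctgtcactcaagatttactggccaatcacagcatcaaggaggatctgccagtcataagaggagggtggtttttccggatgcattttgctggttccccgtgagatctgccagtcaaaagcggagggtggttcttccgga

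The change on mitogen withdrawal was tested on ranks. Fold enrichments were ranked within each list, regions without a peak were tied at the bottom, and ranks were turned into normal scores, so a change is a difference in standard normal units and not a fold of signal. The limma fit took in the 70627 regions that had a peak in 5 or more libraries, and p-values were adjusted over all of them by Benjamini-Hochberg. Of the lncRNA promoter regions, 1001 entered and 325 did not. Of the 1001, 42 had a peak in all libraries of a single condition and in no other library, and so had to differ.

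In WT, 113 of 1001 lncRNA promoter regions (11.3%) were lower and 71 (7.09%) higher at DIFF, against 10.1% lower and 9.15% higher over all regions tested. In p27KO, 72 (7.19%) were lower and 46 (4.6%) higher, against 6.48% and 5.83%. The shares that fell were thus slightly above the background and those that rose slightly below it, and these differences were not tested. Of the lncRNA promoter regions called in WT, 61.4% were lower, against 52.4% of all regions called, and in p27KO 61% against 52.7%. The median change was -0.011 in WT and -0.006 in p27KO, against 0.034 and 0.042 over all regions tested. Leaving out any 1 p27KO library lowered the p27KO count from 118, and the share called over all regions fell too, but this left 1 library in a group. Leaving out WT PRO replicate 1 or 2 lowered the WT count from 184 to 115. That was 12.2% of the lncRNA promoter regions tested, against 12.8% and 12.5% of all regions. Without p27KO PRO replicate 2, 24 of the 45 p27KO calls were higher and 21 lower, so the larger number of falls did not hold there.

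Most regions called in p27KO were also called in WT. Both tests called 91 regions, which is 49.5% of the WT and 77.1% of the p27KO calls, and all 91 had the same sign, 59 lower and 32 higher. The sign in p27KO matched for 180 of the 184 regions called in WT, and the sign in WT for 116 of the 118 called in p27KO. Without the 42 regions open in a single condition, whose direction was fixed, both tests called 73 regions. These were 47.1% of 155 WT and 74.5% of 98 p27KO calls, all 73 with the same sign. Some of them, such as Gm38398 and Gm48703, still had most of their peaks in a single condition and entered through it. The match of signs was therefore not free of the filter. Over all regions tested the overlap was 51.2% of the WT and 79.9% of the p27KO calls, and the sign matched for 97.2% and 98.4%. The groups of these 2 comparisons share no library, although the regions entered by a filter over all 10 and limma used the same estimate of the spread for both.

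**Figure D3:**
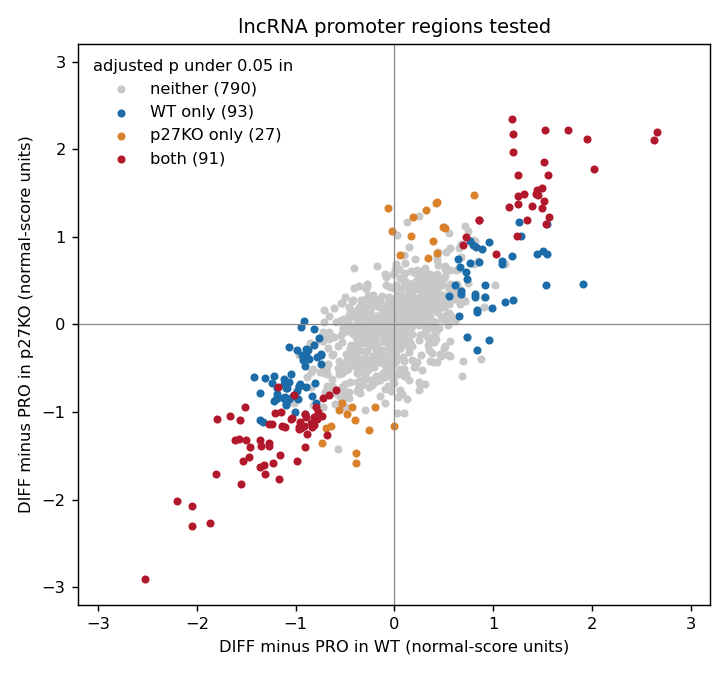
Change from PRO to DIFF in WT (x axis) and in p27KO (y axis), in normal-score units, for the 1001 lncRNA promoter regions tested, 1 point per region. Colours give the test passed, with 93 regions called in WT alone, 27 in p27KO alone, 91 in both and 790 in neither. All 91 points called in both lie in the lower left or upper right quadrant.

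The largest falls were at lincRNAs that have no established function. At Gm37986 (chr1:183414000-183414609, summit 173 bp upstream of the start and 3922 bp from the nearest coding start, that of Hhipl2) fold enrichment was 13.02, 11.1 and 12.9 in WT PRO and 14.9 and 15.8 in p27KO PRO libraries. None of the 5 DIFF libraries had a peak there, so PRO and DIFF did not overlap in either genotype. The change was -2.52 ± 0.23 (SE, adjusted p = 8.97e-05) in WT and -2.90 ± 0.28 (SE, adjusted p = 0.000359) in p27KO (limma). A normal score at a region with no peak rests on the tied bottom rank, so the size of such a change depends on list length. Gm37986, like Gm11682 and 2900052N01Rik below, was open in a single condition and entered the test through it, so that its direction was fixed. Other regions below with few peaks in 1 condition entered through the other, and their tests add no separate support for the direction.

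1700025O08Rik (chr4:22938190-22938770, summit 45 bp upstream of the start, nearest coding gene Pou3f2 at 450114 bp) kept a peak in all 10 libraries. Its fold enrichment was 17.5, 17.5 and 18.5 in WT PRO and 5.82, 5.78 and 8.68 in WT DIFF libraries. In p27KO it was 19.2 and 18.5 at PRO and 6.11 and 5.11 at DIFF. The PRO values were all above the DIFF values, from at least the 98.9th percentile at PRO to at most the 72.5th at DIFF. The change was -2.05 ± 0.19 (SE, adjusted p = 9.62e-05) in WT and -2.30 ± 0.24 (SE, adjusted p = 0.000419) in p27KO (limma). With peaks ranked by -log10 p-value in place of fold enrichment it was -1.10 in WT and -1.38 in p27KO and still passed.

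A930003A15Rik (chr16:19883880-19884828, summit 52 bp upstream, with Gm49598 also starting within 1 kb) also had a peak in every library. Fold enrichment was 15.6, 16.5 and 15.1 in WT PRO, 5.66, 4.16 and 7.08 in WT DIFF, 19.2 and 18.98 in p27KO PRO and 9.17 and 8.52 in p27KO DIFF libraries. The groups of each genotype did not overlap, and the changes were -1.81 ± 0.18 (SE, adjusted p = 0.000132) in WT and -1.71 ± 0.22 (SE, adjusted p = 0.000996) in p27KO (limma). At these 2 genes the peak was weaker at DIFF, whereas at the other 4 it was not called in most or all DIFF libraries.

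Gm11682 (chr11:110544232-110545060, in an intron of the lincRNA, 234 bp downstream of its start) had values of 11.4, 10.6 and 7.57 in WT PRO and 7.67 and 13.1 in p27KO PRO libraries and no peak at DIFF. Gm48703 (chr13:35395305-35396132) had 13.4, 10.6 and 8.54 in WT PRO and 10.6 and 12.6 in p27KO PRO libraries, and of the DIFF libraries only WT DIFF replicate 3 had a peak, at 4.23. Gm49470 (chr15:87138729-87139589, 405264 bp from the nearest coding start) had 12.4, 11.5 and 14.2 in WT PRO and 11.8 and 14.8 in p27KO PRO libraries, with peaks of 4.23 in WT DIFF replicate 3 and 4.83 in p27KO DIFF replicate 2. All 3 passed the test in both genotypes (limma), although the direction at Gm11682, open in a single condition, was fixed. Gm48703 and Gm49470 likewise entered the test through their PRO peaks. The changes were -2.04, -1.87 and -2.20 in WT and -2.07, -2.27 and -2.01 in p27KO. WT DIFF replicate 3, the library with the longest list of its group, held the only WT DIFF peak at Gm48703 and Gm49470. Without p27KO DIFF replicate 1, Gm49470 changed by -1.58 in p27KO and did not pass (limma, adjusted p = 0.0504).

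The largest rises were similar in size. At Gm38398 (chr9:83097701-83098300, summit 233 bp upstream, nearest coding gene Hmgn3 at 12834 bp) no WT PRO library had a peak, and fold enrichment was 8.74, 9.28 and 12.01 in WT DIFF libraries. In p27KO it was 4.79 in PRO replicate 1, with no peak in replicate 2, and 11.2 and 12.7 at DIFF. DIFF lay above PRO without overlap, and the change was 2.66 ± 0.26 (SE, adjusted p = 0.000111) in WT and 2.20 ± 0.32 (SE, adjusted p = 0.00151) in p27KO (limma). The region entered the test through its DIFF peaks.

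Platr26 (chr2:71719332-71720057, 392 bp into the gene, nearest coding gene Itga6 at 25807 bp) belongs to a set of lncRNAs named for their association with pluripotency. Only replicate 1 of WT PRO had a peak, at 3.88, and WT DIFF libraries had 10.1, 10.3 and 13.6. In p27KO the values were 4.31 and 3.43 at PRO and 10.2 and 15.5 at DIFF. Again PRO and DIFF did not overlap, with changes of 2.63 ± 0.25 (SE, adjusted p = 9.57e-05) in WT and 2.10 ± 0.30 (SE, adjusted p = 0.00149) in p27KO (limma).

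The other 4 of the 6 largest rises in WT were smaller. Gm35850 (chr8:90741174-90741895) had no WT PRO peak and 7.08, 4.86 and 7.83 in WT DIFF libraries, and in p27KO 3.83 in 1 PRO library against 4.84 and 11.99 at DIFF. Gm13479 (chr2:45356625-45357479, nearest coding gene Zeb2 at 239562 bp) had 3.05 in 1 WT PRO library and no p27KO PRO peak, against 6.07, 5.78 and 6.14 in WT DIFF and 8.41 and 6.82 in p27KO DIFF libraries. 2900052N01Rik (chr9:46913210-46913662) had a peak in every DIFF and in no PRO library, at 6.36, 6.02 and 6.10 in WT and 6.19 and 7.68 in p27KO. These 3 rose in both genotypes, by 2.02, 1.75 and 1.95 in WT and 1.77, 2.22 and 2.11 in p27KO (limma). The direction at 2900052N01Rik, open in a single condition, was fixed. Gm35850 and Gm13479 had only 1 PRO peak each and entered the test through their DIFF peaks. The p27KO call at Gm35850 was lost without p27KO PRO replicate 2 or p27KO DIFF replicate 2, with an adjusted p of up to 0.091 (limma).

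AC141882.2 (chr17:27247787-27248052, in an exon 207 bp downstream of its start) was the fourth. It had no peak in WT PRO libraries and 5.31, 6.02 and 6.77 in WT DIFF libraries, a change of 1.91 ± 0.20 (SE, adjusted p = 0.000137) (limma). In p27KO it had a peak in both PRO libraries, at 4.15 and 5.62, and in both DIFF libraries, at 5.10 and 5.96, and the change was 0.46 ± 0.24 (SE, adjusted p = 0.26) (limma). The difference between the changes was -1.45 ± 0.31 (SE, adjusted p = 1), which did not pass the test, nor did p27KO minus WT at PRO, 1.17 ± 0.22 (SE, adjusted p = 0.215) (limma).

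In p27KO the 3 largest rises were at Gm40418, Gm13479 and Gm32540. Gm40418 (chr12:50120159-50121037) had 5.26, 3.85 and 3.17 in WT PRO and 8.35, 6.71 and 5.93 in WT DIFF libraries, no peak in p27KO PRO and 10.01 and 6.82 in p27KO DIFF libraries. Gm32540 (chr8:10865322-10865978) had 3.32 and 3.85 in 2 WT PRO libraries and 6.08, 4.81 and 8.74 in WT DIFF libraries, no peak in p27KO PRO and 6.62 and 8.52 in p27KO DIFF libraries. Both rose in both genotypes, by 1.20 and 1.52 in WT and by 2.34 and 2.22 in p27KO (limma). The WT call at Gm40418 was lost without WT PRO replicate 2 or 3 or WT DIFF replicate 1 or 2, with an adjusted p of up to 0.0739 (limma).

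**Figure D4:**
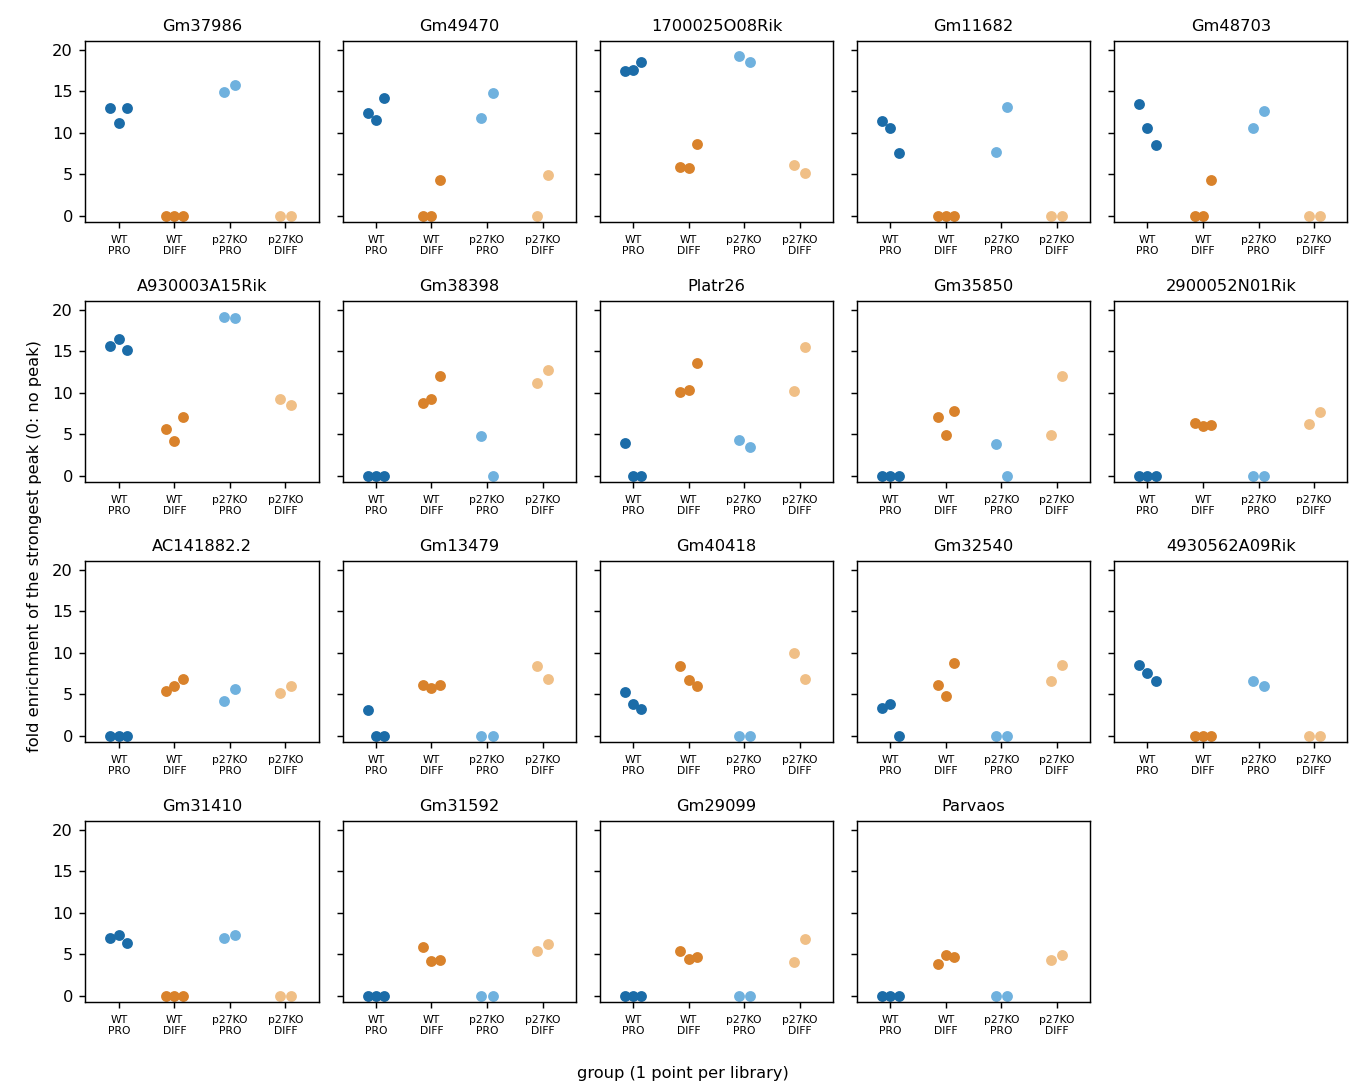
Fold enrichment of the strongest peak (y axis, 0 where no peak was called) in each library, by group (x axis), at the 19 lncRNA promoter regions named for a change, 1 point per library. At Gm37986 the 5 PRO points lie from 11.1 to 15.8 and all DIFF points at 0, and at 2900052N01Rik the 5 DIFF points lie from 6.02 to 7.68 and all PRO points at 0.

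Presence and absence of a peak were also counted, without ranks. Closed regions of a genotype were those with a peak in each of its PRO libraries and none at DIFF, and opened regions the reverse. In WT 57 of 1326 lncRNA promoter regions were closed (4.3%, against 4.3% of all autosomal regions) and 20 were opened (1.51% against 1.89%). In p27KO 129 were closed (9.73% against 10.9%) and 35 opened (2.64% against 3.35%). The shares lay at or below the background in all 4 cases. The genotypes cannot be compared by these counts, since WT needed 6 libraries and p27KO 4. In WT, 137 were closed without WT DIFF replicate 3 and 92 without WT PRO replicate 3, and 33 and 42 were opened without WT DIFF replicates 1 and 2. In p27KO, 199 were closed without p27KO PRO replicate 2 and 221 without p27KO DIFF replicate 2, and 65, 62 and 55 were opened without p27KO PRO replicate 1, p27KO DIFF replicate 1 and p27KO DIFF replicate 2. With all lists trimmed to the same length, 72 were closed in p27KO.

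Closed in both genotypes were 36 regions (2.71%, against 2.6% of autosomal regions) and opened in both were 6 (0.452% against 0.972%). No lncRNA promoter region closed in one genotype and opened in the other. Besides Gm37986 and Gm11682, the closed regions with the highest mean fold enrichment were those of 4930562A09Rik (chr5:116392564-116392986, 9 bp from the start, nearest coding gene Hspb8), at 5.93 to 8.54 in the PRO libraries, and Gm31410 (chr9:116218714-116219458, nearest coding gene Tgfbr2), at 6.35 to 7.35. Besides 2900052N01Rik, the opened regions with the highest mean fold enrichment were those of Gm31592 (chr10:91888504-91888912), at 4.16 to 6.25 in the DIFF libraries, Gm29099 (chr1:92324008-92324691, nearest coding gene Hdac4), at 4.08 to 6.82, and Parvaos (chr7:112535439-112535823, in an intron of Parva on the opposite strand), at 3.79 to 4.86. The choice of these regions fixed the direction of their change, and no test is given for them.

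The change differed between CpG classes. In WT 20.7% of 840 CpG-poor lncRNA promoter regions tested passed (12.9% lower and 7.86% higher), against 6.21% of 161 CpG-rich ones. Over all autosomal regions the shares were 22.8% and 3.39%. In p27KO they were 13.8% and 1.24%, against 14.9% and 1.17% over autosomal regions, so CpG-poor regions passed more often in general. All 19 regions named for a change were CpG-poor. CpG-poor distal regions passed in 24.2% of tests in WT and CpG-poor coding promoters in 13%, so CpG-poor lncRNA promoter regions lay between them. By position relative to coding genes, 18% of 795 regions tested outside coding genes, 19.5% of 174 in introns and 21.9% of 32 in exons passed in WT, and 12.3%, 10.3% and 6.25% in p27KO, in the opposite order. lincRNA and antisense regions passed in 18% and 19.5% of tests in WT and in 12% and 11.2% in p27KO.

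The letters at the summits differed between regions that fell and regions that rose. In 300 bases around the summit, AP-1 letters stood in 21.2% of the 113 lncRNA promoter regions lower in WT, in 1.41% of the 71 higher ones and in 8.37% of all 1326. Over all autosomal regions the shares were 23.9%, 3.56% and 8.07%, so the order was the same there. In p27KO the shares were 27.8% of 72 lower and 2.17% of 46 higher regions, against 28.1% and 3.38% over autosomal regions. E-box letters stood in 64.6% of lower and 39.4% of higher regions in WT and in 46.5% of all lncRNA promoter regions, against 61.3%, 37% and 43.3% over autosomal regions. NFI letters went the other way, with 23% of lower, 39.4% of higher and 22.3% of all lncRNA promoter regions, against 25.1%, 38.8% and 23.7%. Letters of CTCF, which holds chromatin loops (AGGGGGCGC or AGGTGGCAG), stood in 3.24% of all lncRNA promoter regions and in 1 of the 113 lower and 0 of the 71 higher ones in WT, against 3.27%, 1.59% and 1.37% over autosomal regions. SOX letters (ACAATNG) stood in 9.35% of all, 11.5% of lower and 12.7% of higher lncRNA promoter regions in WT, against 10.2%, 13.4% and 10% over autosomal regions, and in 11.1% of lower and 8.7% of higher ones in p27KO, so they had no steady order.

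Among 64 listed names of well-known lncRNAs, 16 had a promoter region by this rule. Of the rest, 26 names are not those of lincRNA or antisense genes in the annotation used (Norad is 1 of them and was found under its other name, 2900097C17Rik), 16 had no summit within 1 kb, and 6 had a summit within 3 kb of a coding start. Of the 16, 11 had a peak in all 10 libraries and 8 were CpG-rich. By limma, 0 of the 14 tested passed in WT and 1 in p27KO, that of Miat, against 10.1% lower and 9.15% higher in WT and 6.48% and 5.83% in p27KO over all regions. At an unadjusted p under 0.05 there were 2 in each genotype.

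**Figure D5:**
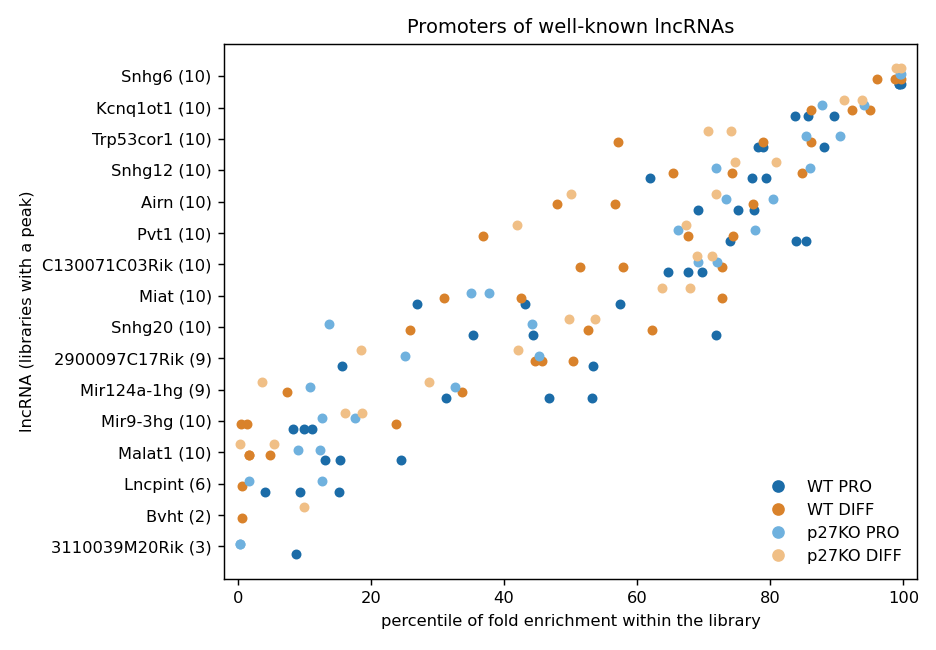
Percentile of fold enrichment within the library (x axis) at the promoters of 16 well-known lncRNAs, 1 point per library with a peak, coloured by group, with the number of libraries with a peak in brackets. Snhg6 and Kcnq1ot1 lie above the 83rd percentile in every library and Malat1 below the 25th.

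Imprinted antisense lncRNAs come first. Kcnq1ot1 (chr7:143295757-143296949, summit 60 bp upstream, in an intron of Kcnq1) is made from the paternal allele and silences neighbouring genes, among them Cdkn1c, which encodes p57, a relative of p27. Its fold enrichment was 11.7, 12.9 and 10.8 in WT PRO, 11.99, 10.3 and 14.96 in WT DIFF, 13 and 15.02 in p27KO PRO and 14.2 and 14.7 in p27KO DIFF libraries. Airn (chr17:12741013-12742665, in an intron of Igf2r, which it silences) had 9.65, 8.74 and 9.56 in WT PRO, 5.52, 6.02 and 9.64 in WT DIFF, 11 and 9.28 in p27KO PRO and 8.41 and 6.51 in p27KO DIFF libraries. PRO and DIFF overlapped at both genes, except at Airn in p27KO, and none of the changes passed the test. They were 0.37 ± 0.19 (SE, adjusted p = 0.213) in WT and 0.17 ± 0.24 (SE, adjusted p = 0.714) in p27KO at Kcnq1ot1, and -0.19 ± 0.21 (SE, adjusted p = 0.593) in WT and -0.29 ± 0.26 (SE, adjusted p = 0.536) in p27KO at Airn (limma).

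Hosts of neural microRNAs were weaker. Mir124a-1hg (chr14:64587011-64587957), host of the neuronal miR-124, had 6.59, 5.89 and 4.46 in WT PRO libraries, 3.24 and 4.44 in 2 WT DIFF libraries, 4.55 and 3.43 in p27KO PRO and 3.06 and 4.76 in p27KO DIFF libraries. Mir9-3hg (chr7:79498968-79500171), host of miR-9, had 3.56, 3.51 and 3.26 in WT PRO and 2.82, 2.60 and 3.83 in WT DIFF libraries, and C130071C03Rik (chr13:83720915-83721975), another host of miR-9, had 5.80 to 9.39 over the 10 libraries. The changes in WT were -0.54 ± 0.24 (SE, adjusted p = 0.145) at Mir124a-1hg, 0.36 ± 0.17 (SE, adjusted p = 0.171) at Mir9-3hg and -0.01 ± 0.16 (SE, adjusted p = 0.981) at C130071C03Rik (limma). The positive change at Mir9-3hg goes against its lower fold enrichment in 2 of 3 WT DIFF libraries. Among regions with a peak in all 10 libraries the change at Mir9-3hg in WT was -0.36. The score also ranks regions without a peak, which are more numerous in shorter lists, but the cause of the sign was not tested. None of these hosts passed the test in either genotype.

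Miat, a nuclear lncRNA of neural cells (chr5:112228250-112229236, in an exon 381 bp downstream of the start), had 4.89 and 4.80 in p27KO PRO and 7.89 and 8.17 in p27KO DIFF libraries, without overlap, a change of 0.95 ± 0.28 (SE, adjusted p = 0.0468) (limma). In WT it had 7.01, 5.62 and 4.17 at PRO and 4.41, 4.90 and 8.72 at DIFF, which overlapped, with a change of 0.39 ± 0.23 (SE, adjusted p = 0.27) (limma). The difference between the changes was 0.57 ± 0.36 (SE, adjusted p = 1) (limma) and did not pass. The p27KO call held in 9 of 20 other settings, with adjusted p from 0.0211 to 0.202 (limma), and was lost without any 1 of the 4 p27KO libraries, WT PRO replicate 2 or 3 or WT DIFF replicate 2.

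lncRNAs tied to growth and growth arrest did not pass the test. Pvt1 (chr15:62037684-62038959), a neighbour of Myc, had 11.6, 11.6 and 8.95 in WT PRO and 7.34, 4.63 and 9.05 in WT DIFF libraries. In p27KO it had 10.3 and 8.08 at PRO and 5.10 and 8.73 at DIFF, and the groups overlapped in both genotypes. Trp53cor1, a p53 target beside Cdkn1a (chr17:29078205-29079498), had 6.27 to 11.9 in WT libraries, where PRO and DIFF overlapped. In p27KO it had 13.9 and 12 at PRO and 8.23 and 9.96 at DIFF, without overlap, a change of -0.46 ± 0.27 (SE, adjusted p = 0.316) (limma). Lncpint, also induced by p53 (chr6:31220203-31220654), had a peak in all 5 PRO and in 1 of 5 DIFF libraries, at 2.73 to 3.72, and so counted as closed in p27KO by presence. The changes in WT were -0.45 ± 0.22 (SE, adjusted p = 0.189) at Pvt1, -0.10 ± 0.22 (SE, adjusted p = 0.8) at Trp53cor1 and -0.13 ± 0.28 (SE, adjusted p = 0.793) at Lncpint (limma).

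Genes named as hosts of small nucleolar RNAs did not pass the test either. Snhg6 (chr1:9943683-9944496, summit 24 bp upstream) had 13.5 to 21.01 over the 10 libraries, at the 96th percentile or above in each. Snhg12 (chr4:132308351-132309187) had 7.08 to 12.2 and Snhg20 (chr11:117076505-117077018, 725 bp into the gene) 3.65 to 9.16. The largest change of the 3 was that of Snhg20 in p27KO, 0.79 ± 0.34 (SE, adjusted p = 0.171) (limma), which did not pass.

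Malat1, an abundant nuclear RNA (chr19:5802366-5802736), had a weak peak in all 10 libraries. Its fold enrichment was 4.27, 3.73 and 3.52 in WT PRO and 2.91, 3.09 and 2.73 in WT DIFF libraries, and 3.37 and 3.41 in p27KO PRO and 3.19 and 2.64 in p27KO DIFF libraries. DIFF lay below PRO without overlap in both genotypes, whereas the score, which also ranks regions without a peak, changed by -0.01 ± 0.23 (SE, adjusted p = 0.98) in WT and 0.26 ± 0.29 (SE, adjusted p = 0.629) in p27KO (limma). Among regions with a peak in all 10 libraries the changes were -0.68 and -0.41, and neither passed the test. 2900097C17Rik, the mouse Norad gene (chr2:156392493-156393058), whose RNA binds Pumilio proteins, had a peak in 9 of 10 libraries, at 3.66 to 6.57, with none in WT PRO replicate 1. A further 2 regions were too rare to be tested: 3110039M20Rik (chr12:49390261-49390537) had a peak in 3 libraries, at 2.44 to 3.33, and Bvht, a cardiac lncRNA, in 2 libraries, at 2.47 and 3.39. The change in WT was 0.90 ± 0.35 (SE, adjusted p = 0.102) at 2900097C17Rik (limma). Without WT PRO replicate 2, the change at 2900097C17Rik in WT was 1.31 and passed the test (limma, adjusted p = 0.0159).

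Whether p27 mattered at lncRNA promoters was asked in 3 ways. The interaction, which tests whether the change from PRO to DIFF differed between genotypes, called 0 of 1001 lncRNA promoter regions by limma, against 0% of all regions tested. At an unadjusted p under 0.05 it gave 38 (3.8%), against 3.91% of all regions. For p27KO minus WT at PRO limma called 0, against 0.034% of all regions, with 55 (5.49%) at an unadjusted p under 0.05 against 5.53%. For p27KO minus WT at DIFF it called 0, against 0.0156%, with 52 (5.19%) at an unadjusted p under 0.05 against 4.91%. All regions include those on the sex chromosomes, whereas the lncRNA promoter regions are autosomal. Over all regions limma called 24 at PRO and 11 at DIFF. Run on autosomes only, limma called 4 regions at PRO and 1 at DIFF, none of them lncRNA promoter regions. No difference between genotypes was thus detected at lncRNA promoters by this test, which does not show that there is none.

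Presence of a peak was also compared between genotypes within a condition. At PRO, 10 lncRNA promoter regions (0.754%, against 2.17% of autosomal regions) had a peak in both p27KO and in no WT library, and 13 (0.98% against 0.483%) in all 3 WT and in no p27KO library. At DIFF, 6 (0.452% against 0.647%) had a peak in p27KO alone and 5 (0.377% against 0.456%) in WT alone. The p27KO PRO lists were longer than the WT PRO lists, at 83854 and 91801 peaks against 76372 to 80179. The 5 of WT DIFF, named after their values were seen, were Gm47352, Gm27177, Gm14486, Chrna1os and Gm44752, with a mean fold enrichment of 3.65, 4.40, 4.17, 3.33 and 3.27 over the libraries with a peak. All 5 also had a peak in 1 p27KO PRO library, so none of these 5 was without a peak in every p27KO library. Of the 13 of WT PRO, 4930551I15Rik, Gm26829, Gm35299, Ube2uos, Gm13003 and Gm45355 had no peak in any p27KO library. Their mean fold enrichment was 3.19 to 5.77 over the libraries with a peak. The rest of the 13 had a peak in 1 or both p27KO DIFF libraries.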

How the data were processed

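ATAC-seq libraries of 10 cultures were analysed from peak lists, 1 per library. According to the methods, the authors trimmed reads with Cutadapt and Trimmomatic, aligned them to GRCm38 with Bowtie2, marked duplicates in Picard and used MACS2 for narrow peaks at a false discovery rate of 0.05. Tool versions and whether reads were shifted for the transposase are not given in the sources used here. The deposited columns hold the fold enrichment at the summit, a ratio to local background, and the -log10 p-value and -log10 q-value (the lowest -log10 q is 1.30). The deposited score column was not used. The study states an average number of reads over samples but the depth of single libraries is unknown, so no interval for single values can be given, and the study's test on read counts was replaced by a test on ranks.

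Peaks overlapping by at least 1 bp were merged into 137454 regions, of which those in at least 2 lists were kept, with the summit of the peak of highest -log10 p. GENCODE M21 gave gene starts, whereas the authors used M18. The limma package (3.58.1, R 4.3.3) fitted the ranks with 1 mean for each of 4 groups and 5 contrasts at an adjusted p of 0.05. The procedure was also run on simulated scores with changes added. These scores had normal noise, no tied ranks and no differences in list length, so effects of ties and list length were not checked. Named were the listed lncRNAs, the 6 largest falls and rises in WT and 3 in p27KO, the 4 regions closed and opened in both genotypes with the highest mean fold enrichment, and the 5 with the highest mean percentile. The regions and lists were chosen with earlier results of these data known. Alternatives covered the peak filter, ranking, list length, overlap, distances, the samples fitted and a replicate block.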

Additional observations from a re-analysis of the deposited data

How the results depend on the processing

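Besides leaving out libraries, other settings moved 6 counts by over 1.5 times and the share with a peak in all 10 libraries beyond its interval under 2 settings. With only regions that had a peak in all 10 libraries, fewer regions were tested. The share called was also lower in both genotypes, among lncRNA promoter regions and over all regions. Among lncRNA promoter regions the calls came to 75 in WT, of which 52 fell and 23 rose. In p27KO they came to 40, of which 33 fell and 7 rose. The WT calls were 12.8% of the lncRNA promoter regions tested, against 12.9% of all regions. In p27KO the share was slightly above that of all regions. With lists of the same length, 35 were opened in WT, 72 closed in p27KO, and 51.5% had a peak in all 10 libraries. With summits within 500 bp of the start, which leaves fewer regions, 83 were closed and 23 opened in p27KO, and 47.9% had a peak in all 10 libraries. The calls for the interaction and for p27KO minus WT stayed at 0 under every setting run.

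Leaving out each library in turn gave 115 to 161 calls in WT, 42 to 108 in p27KO, 56 to 137 closed and 20 to 42 opened regions in WT, and 129 to 221 closed and 35 to 65 opened regions in p27KO. Where this left 1 p27KO library in an arm, limma assumed that it varied like the other groups. The share called in p27KO over all regions fell there too. Deviations of same-numbered PRO and DIFF libraries had small correlations in WT, of 0.057, 0.065 and 0.033, against -0.051 to -0.005 for WT libraries of different number. In p27KO they were -0.141 for the same and 0.141 for different numbers, which mirror each other with 2 libraries per group. The numbers were not taken as pairs. Without WT PRO replicate 1 or 2, 12.2% of the lncRNA promoter regions tested were called in WT, against 12.8% and 12.5% of all regions. A replicate block gave 167 calls in WT (16.7%, against 18.5% of all regions) and 107 in p27KO (10.7% against 11.7%). A crossed replicate block, chosen after seeing the data, gave 179 (17.9% against 19%) and 109 (10.9% against 12.1%). Under both, Miat in p27KO no longer passed the test, and no other named region lost its call.

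Some well-known lncRNAs that did not pass the test changed direction, and the cause was not tested. With a peak in all 10 libraries the change was -0.01 at Snhg20 and -0.36 at Mir9-3hg in WT and -0.41 at Malat1 in p27KO, and at Malat1 in WT it was 0.11 with stricter peaks and 0.00 with lists of the same length. With 1 library left out, the change in WT ranged from -0.10 to 0.35 at Snhg20, -0.05 to 0.07 at C130071C03Rik, -0.21 to 0.11 at Trp53cor1, -0.21 to 0.33 at Malat1 and -0.35 to 0.29 at Lncpint. In p27KO it ranged from -0.35 to 0.05 at Snhg6, -0.04 to 0.48 at Mir124a-1hg, -0.61 to 0.02 at Airn, -0.05 to 0.40 at 2900097C17Rik, -0.22 to 0.37 at Snhg12, -0.47 to 0.14 at Lncpint and -0.06 to 0.40 at Kcnq1ot1. The unknown depth limits every statement on an absent peak.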
